A study of Mus musculus with 4 samples.

Results

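Spleen neutrophils rich in Ltf, the transcript of the iron-binding granule protein lactoferrin, were chosen as cell barcodes with at least 500 unique molecular identifiers (UMIs, tags that count RNA molecules), at least 200 genes and no more than 10% mitochondrial UMIs. Each had to hold at least 5 UMIs of S100a8 and S100a9 together, at least 5 of Ltf and at most 2 of the azurophil granule genes Elane, Mpo and Prtn3. None could hold a UMI of Ncr1, C1qa, Cd79a, Cd3d, Cd3e or Cd3g, which mark natural killer (NK) cells, macrophages, B cells and T cells. The rule found 326 members among the 14482 spleen barcodes within the quality limits, and among 26816 barcodes in the 4 libraries of the series. Of these, 287 came from the spleens of Ndufa4-deficient (KO) mice and 39 from those of wild-type (WT) mice. Ltf, S100a8, S100a9 and the exclusion genes chose the cells, so their levels are given only as a description.

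Neutrophils mature in an ordered program in which granule proteins are made in waves. Azurophil granule proteins such as myeloperoxidase come first, in dividing promyelocytes. Specific granule proteins, among them lactoferrin, the cathelicidin Camp, the neutrophilic granule protein Ngp and the siderophore-binding protein Lcn2, come next, in myelocytes and metamyelocytes, and need the transcription factor C/EBP epsilon (Cebpe). Gelatinase granule proteins and the receptors and cytokines of mature neutrophils follow, after division has stopped. Cells at the specific granule stage are normally abundant in bone marrow, and the mouse spleen can also make neutrophils.

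The KO libraries came from Ndufa4-deficient mice and the WT libraries from wild-type mice. All mice were C57BL/6 males aged 8 weeks, and all carried subcutaneous tumours of B16-F10, a melanoma line of that strain, implanted 18 days earlier. Which part of Ndufa4 was removed, and in which cells, is not stated in the labels. Spleen cells were sorted for CD45, a marker of leukocytes, and CD11b, an integrin of myeloid cells. Equal numbers of cells from 3 mice of a genotype were pooled into 1 library per genotype and organ, although the protocol allows up to 4, and about 16000 cells were loaded per library. Cells cannot be traced to single mice, so no comparison below has a replicate or a test, and a difference between genotypes cannot be told apart from one between these pools. Square brackets hold 95% intervals that cover counting error only.

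Members held a median of 11140 UMIs and 2467 genes in KO, and 9977 UMIs and 2377 genes in WT, and summed to 3514472 UMIs in KO and 396102 in WT. The median mitochondrial share was 0.965% in KO and 0.794% in WT. The spleen libraries shared 19 barcode sequences, of which 1 was a member in either library and 0 in both. Granule transcripts in B cell barcodes differed between the libraries. In B cells, taken as barcodes with at least 3 Cd79a UMIs, Ltf had 289 CPM in KO and 1.57 CPM in WT, where CPM are UMIs scaled to a total of 1000000 per class of cells. Camp had 472 CPM in KO and 3.53 CPM in WT B cells, and Ngp had 781 CPM in KO and 4.71 CPM in WT B cells. A Ltf UMI was found in 64 of 344 KO and 3 of 232 WT B cells. Neutrophil transcripts were no ground for leaving out a B cell, so barcodes that caught a neutrophil as well may be included, which was not tested.

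Ltf-positive neutrophils made up a larger share of the KO spleen library than of the WT one. They were 287 of 6952 kept barcodes in KO, or 4.13% [3.67, 4.62], and 39 of 7530 in WT, or 0.518% [0.369, 0.707]. The KO share was 3.61 percentage points higher [3.13, 4.12], a ratio of 7.97 [5.69, 11.4]. Among barcodes that met all limits but that on Ltf, members were 15.0% of 1916 in KO and 1.49% of 2619 in WT.

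Ltf-low neutrophils were the reverse. They were defined by the same limits with at most 4 Ltf UMIs, no Csf1r UMI and at least 1 UMI of the maturity genes Cxcr2 and Retnlg. They numbered 953 in KO (13.7%) and 1430 in WT (19.0%), a difference of -5.28 percentage points [-6.48, -4.08]. Granulocyte progenitors, with at least 10 UMIs of Elane, Mpo and Prtn3, numbered 26 in KO and 16 in WT, and the interval of their ratio of shares, 1.76 [0.909, 3.51], spanned 1. In tumours of the same groups the rule found 1 cell among 4656 kept barcodes in KO and 0 among 4019 in WT, which allows a share of up to 0.0746% in WT tumours by a floor of 3 counts, with a 95% upper limit of 0.0917%.

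The Ltf limit of the rule fell into a gap of the counts. Of barcodes that met the other limits, 0 in KO and 1 in WT held 5 to 9 Ltf UMIs. Just inside the limit, 8 KO members held 11 to 25 Ltf UMIs, with medians of 9 Camp and 42 Ngp UMIs, and 4 WT members held 8 to 24, with medians of 21 Camp and 56.5 Ngp UMIs. Just outside it, 9 KO barcodes held 3 or 4 Ltf UMIs, with medians of 0 Camp and 1 Ngp UMIs, and no WT barcode held 3 or 4. The other 279 KO and 35 WT members held over 30.

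**Figure D1:**
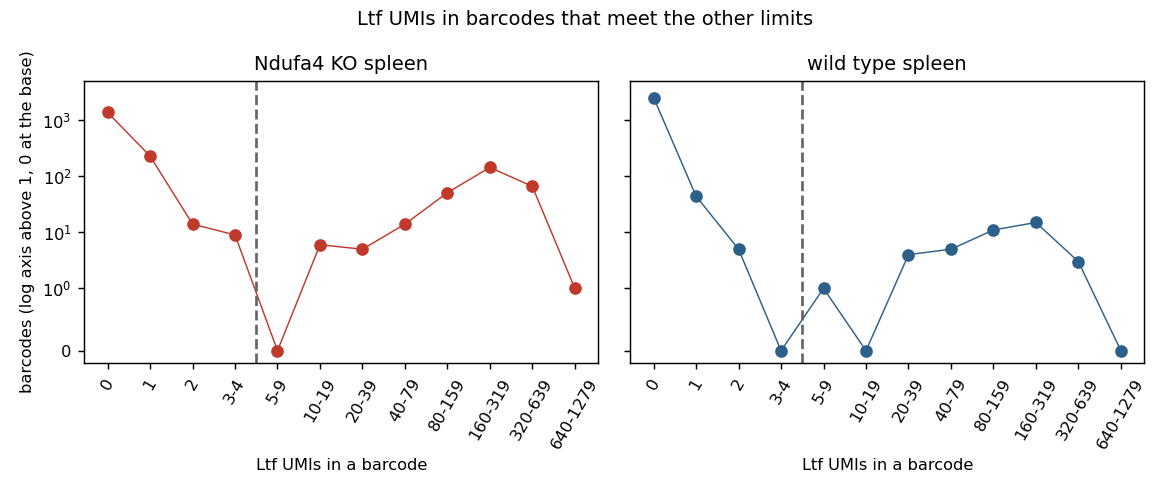
Number of barcodes (vertical, log axis above 1) by the Ltf UMIs they held (horizontal), in KO spleen on the left and WT spleen on the right, for barcodes that met every other limit of the rule. The dashed line is the limit of 5 UMIs, and in each library the bin of 160 to 319 UMIs holds the most members, 144 in KO and 15 in WT.

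Specific granule genes were abundant together in these cells, and the promoters of the marker genes are shown for that reason. Each stretch holds the 250 bases before the gene's RefSeq start on build GRCm38.p6, read 5′ to 3′ along its strand: Ltf (chr9:111019042-111019291, plus strand), Camp (chr9:109849457-109849706, minus strand), Ngp (chr9:110419558-110419807, plus strand) and Lcn2 (chr2:32387740-32387989, minus strand). The nearest GENCODE start lay 0 bases from the RefSeq start for Ltf, 161 for Camp, 61 for Ngp and 17 for Lcn2. Capitals mark matches, on either strand, to TTGCNNAA (TTNNGCAA on the other strand), letters shared by many sites of the C/EBP family.
Ltf: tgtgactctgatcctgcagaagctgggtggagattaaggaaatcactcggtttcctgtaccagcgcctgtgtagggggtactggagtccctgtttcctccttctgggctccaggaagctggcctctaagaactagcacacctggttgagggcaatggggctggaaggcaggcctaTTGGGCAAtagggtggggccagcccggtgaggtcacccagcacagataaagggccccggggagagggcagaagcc
Camp: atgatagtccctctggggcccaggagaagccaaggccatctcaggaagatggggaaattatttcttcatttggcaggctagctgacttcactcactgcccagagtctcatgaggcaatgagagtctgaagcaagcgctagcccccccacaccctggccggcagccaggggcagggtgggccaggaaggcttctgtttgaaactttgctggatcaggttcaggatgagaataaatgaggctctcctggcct
Ngp: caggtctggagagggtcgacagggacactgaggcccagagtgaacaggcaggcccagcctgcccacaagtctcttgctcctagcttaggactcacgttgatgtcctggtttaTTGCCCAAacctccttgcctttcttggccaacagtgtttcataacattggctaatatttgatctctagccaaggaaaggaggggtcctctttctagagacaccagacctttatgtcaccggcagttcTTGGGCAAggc
Lcn2: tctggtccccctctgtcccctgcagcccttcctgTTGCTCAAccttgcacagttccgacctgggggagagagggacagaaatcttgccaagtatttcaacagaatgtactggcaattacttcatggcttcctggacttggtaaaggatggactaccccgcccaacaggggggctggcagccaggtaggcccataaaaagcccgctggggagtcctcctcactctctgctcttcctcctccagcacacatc
Ltf held 1 match, which began 75 bases before the start, Ngp held 2, at 138 and 11 bases, Lcn2 held 1, at 216 bases, and Camp held 0 in this window. Of the 12 specific granule genes listed, 11 had a RefSeq window, and 5 of these held a match (Fcnb and Mmp8 besides the 3 above), as did 9.56% of all 32851 windows of this length. A match describes letters and does not show binding.

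The marker genes of the label were present in nearly every member. Ltf had 19208 CPM in KO and 16465 CPM in WT members, and single members held 11 to 675 UMIs (median 219) in KO and 8 to 412 UMIs (median 151) in WT. Camp had 32390.4 CPM in KO and 28079 CPM in WT, and 0 to 1440 UMIs (median 358) per KO member and 4 to 996 UMIs (median 169) per WT member. Ngp had 42950.1 CPM in KO and 38677 CPM in WT, and 2 to 1656 UMIs (median 509) per KO member and 24 to 953 UMIs (median 365) per WT member. The libraries overlapped widely in all 3 genes, with higher medians per cell in KO. The 12 specific granule genes summed to 125207 CPM in KO and 112869.9 CPM in WT. Ctsg, an azurophil protease that the rule did not use itself, had 1 UMI over all KO members and 0 over all WT members. The rule's limit on Elane, Mpo and Prtn3 may have set this in part. The 9 azurophil granule genes listed summed to 204 CPM in KO and 149 CPM in WT members.

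Set beside Ltf-low neutrophils of the same library, members carried a different program in both genotypes. Of 4254 genes compared, 422 (9.92%) were at least 1.5-fold higher in members in both libraries and 1571 (36.9%) at least 1.5-fold lower, and the median log2 ratio over these genes was -0.44 in KO and -0.48 in WT. Chil3, a chitinase-like secreted protein, had 6359 CPM in KO and 6382 CPM in WT members, and 40.3 CPM in KO and 35.4 CPM in WT Ltf-low cells, log2 ratios of 7.30 in KO and 7.50 in WT. Cebpe had 521 CPM in KO and 454 CPM in WT members, and 14.6 CPM in KO and 12.6 CPM in WT Ltf-low cells, log2 ratios of 5.16 in KO and 5.17 in WT. The size of these gaps was close in KO and WT.

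Cybb, the membrane subunit of the NADPH oxidase that makes superoxide, was higher in members by 5.23 in KO and 4.85 in WT on the log2 scale. The ratio of Inhba, which encodes an activin subunit, was 6.39 in KO and 7.08 in WT. Serpinb1a, an inhibitor of neutrophil proteases, had 5.50 in KO and 5.79 in WT, the lipid transporter Abca13 had 5.81 in KO and 5.15 in WT, and the integrin Itgb2l had 4.57 in KO and 5.51 in WT. Anxa3, an annexin, and the protease Zmpste24 completed the 12 highest genes with Camp, Ngp and Ltf, whose place the rule fixed. Of 11 specific granule genes compared, 10 were higher in members in both libraries, beside 9.92% of all genes. Ltf, whose UMIs set both classes, is on this list.

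Several cytokine and enzyme genes were among the 12 lowest in members. Il1b, the inflammatory cytokine interleukin 1 beta, had 30.2 CPM in KO and 134 CPM in WT members, and 4031 CPM in KO and 3746 CPM in WT Ltf-low cells. Ptgs2, the inducible cyclooxygenase, had log2 ratios of -7.76 in KO and -5.35 in WT, and the chemokine Cxcl2 had -6.08 in KO and -4.69 in WT. Ccl6, another chemokine, had -6.05 in KO and -4.78 in WT. Stfa2l1, of a family of near-identical cystatins and so uncertain, and Pla2g7, a lipase, were also among the 12 lowest. Of 19 mature neutrophil genes compared, 15 were lower in members in both libraries and 1 was higher, beside 36.9% and 9.92% of all genes, but Ltf-low cells were required to hold a UMI of Cxcr2 or Retnlg, which are on this list. All 19 immediate early genes compared, which respond within minutes to stimulation, were lower in both, beside the same 36.9% of all genes.

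Across progenitors, members and Ltf-low cells each gene had its own order. Fcnb, the lectin ficolin B, had 537 CPM in KO and 161 CPM in WT progenitors, 305 CPM in KO and 167 CPM in WT members, and 0.790 CPM in KO and 0.262 CPM in WT Ltf-low cells. Mmp8, the neutrophil collagenase, had 60.7 CPM in KO and 269.6 CPM in WT progenitors, 1535 CPM in KO and 2848 CPM in WT members, and 893 CPM in KO and 1108 CPM in WT Ltf-low cells. Retnlg, a resistin-like protein, had 49.6 CPM in KO and 5.43 CPM in WT progenitors, 2541 CPM in KO and 5842 CPM in WT members, and 7903 CPM in KO and 7148 CPM in WT Ltf-low cells. Fcnb was thus lowest in Ltf-low cells and Mmp8 highest in members, while the high Retnlg of Ltf-low cells is set in part by their definition, which asked for a UMI of Cxcr2 or Retnlg.

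**Figure D2:**
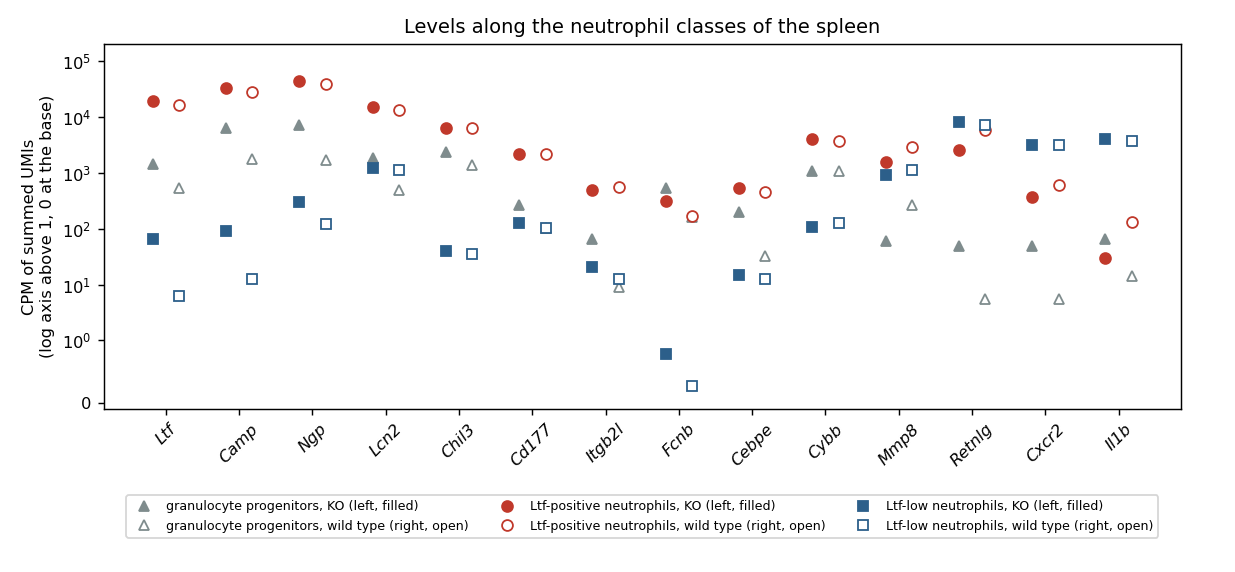
Levels of 14 genes in CPM (vertical, log axis above 1) in granulocyte progenitors, Ltf-positive and Ltf-low neutrophils, with KO filled and left of WT, which is open. Camp and Ngp are highest in the Ltf-positive cells and Il1b in the Ltf-low cells, while the order of Ltf, Retnlg and Cxcr2 is set at least in part by how the classes were defined.

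Members differed among themselves. To compare cells at 1 depth, each was thinned to 1000 UMIs, which left out 0 KO members and 1 WT member. Across cells, Camp and Retnlg had rank correlations of -0.48 in KO (287 cells) and -0.76 in WT (38 cells), and Mmp8 and Retnlg had 0.64 in KO and 0.75 in WT. Chil3 and Mmp8 had -0.47 in KO and -0.60 in WT. Cells of a library share its pool and free RNA, so these values describe the cells only.

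Members were then set into ranges, chosen after the values had been seen: cells with a UMI of 8 division genes (Mki67, Top2a, Cdk1, Ccnb2, Birc5, Tpx2, Cenpf and Ube2c), other cells with no Retnlg UMI, and other cells with at least 1. In that order, mean Camp UMIs per 1000 were 36.3, 33.7 and 24.7 in KO and 42.2, 43.3 and 18.8 in WT. Mean Chil3 UMIs were 8.96, 6.49 and 4.18 in KO and 11.8, 9 and 3.93 in WT. Mean Mmp8 UMIs were 0.353, 0.868 and 3.69 in KO and 0, 0.333 and 4.14 in WT. Camp and Chil3 were thus lowest and Mmp8 highest in cells with Retnlg in both libraries, while mean Ltf UMIs were 15.8, 20.3 and 19.1 in KO and 13.5, 14.5 and 14.4 in WT.

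The libraries filled these ranges differently. Members with Retnlg and no division UMI were 122 of 287 in KO (42.5%) and 28 of 38 in WT (73.7%), a difference of -31.2 percentage points [-43.8, -14.5]. Members with neither were 114 in KO (39.7%) and 6 in WT (15.8%), a difference of 23.9 percentage points [8.31, 34.1]. These are ranges and not types, since 29 KO and 6 WT cells held exactly 1 Retnlg UMI. Without thinning, the share of members with a Retnlg UMI was 81.2% in KO and 89.7% in WT. The share of thinned B cells with a Retnlg UMI was 3.78% in KO and 5.17% in WT, at median depths of 7134.5 UMIs in KO and 8078 in WT before thinning.

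**Figure D3:**
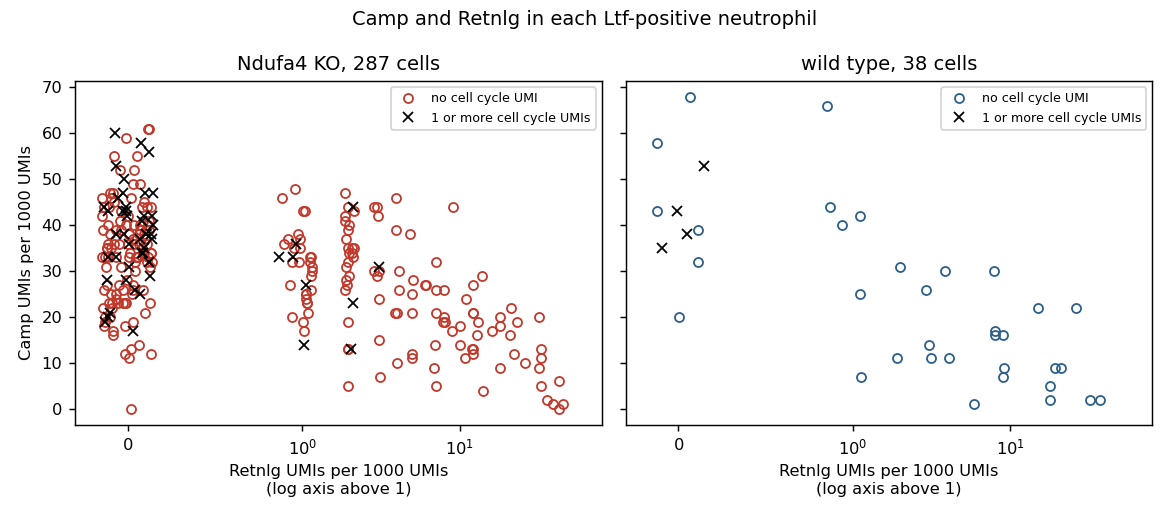
Camp UMIs (vertical) against Retnlg UMIs (horizontal, jittered) in each member thinned to 1000 UMIs, for 287 KO cells on the left and 38 WT cells on the right, with crosses for cells that hold a division UMI. Camp is lower where Retnlg is higher in both libraries, with rank correlations of -0.48 in KO and -0.76 in WT.

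Division transcripts were present in some members of each library. After thinning, 51 of 287 KO members, or 17.8% [13.5, 22.7], and 4 of 38 WT members, or 10.5% [2.94, 24.8], held a UMI of the 8 genes. The difference of 7.24 percentage points [-6.93, 15.2] was not detectable with so few WT cells. Without thinning 89 of 287 KO and 8 of 39 WT members held at least 1. Thinned B cells gave 7.56% in KO and 6.03% in WT, and thinned Ltf-low neutrophils gave 0.884% in KO and 2.18% in WT.

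Ndufa4, a subunit of complex IV, the last enzyme of the respiratory chain, was read first in the comparison of genotypes, as a check of the labels. It had 0 UMIs in KO members and 61 UMIs, or 154 CPM [118, 198], in WT members, at least 180.4-fold lower in KO by a floor of 3 UMIs over the KO members. Ltf-low cells had 0 CPM in KO and 87.0 CPM in WT. AA467197, which encodes NMES1, a protein related to NDUFA4 that can take its place in complex IV, was present in 283 of 287 KO and 32 of 39 WT members. Its level was 813 CPM in KO and 634 CPM in WT, a log2 ratio of 0.36 [0.17, 0.55]. Ltf-low cells had 88.8 CPM in KO and 84.1 CPM in WT, so that members were higher than Ltf-low cells by 3.19 in KO and 2.91 in WT on the log2 scale. Ndufa4l2, the other paralog, had 0 UMIs in members of either genotype.

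Across the transcriptome, 3980 genes with at least 100 UMIs over the members of both libraries were compared, and their median log2 ratio of KO over WT was 0.00. KO was at least 1.5-fold higher in 446 genes (11.2%) and at least 1.5-fold lower in 270 (6.78%), and the genes of a list counted below as higher or lower passed the same fold. The whole interval lay beyond 1.5-fold for 18 genes higher in KO (0.452%) and 30 lower in KO (0.754%). A gene had a median of 222.5 UMIs in KO and 26 in WT, so the counts rest on shallow WT values. In Ltf-low neutrophils, 146 of 5278 genes were higher (2.77%) and 148 lower (2.8%).

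Most other respiratory genes stayed within 1.5-fold, as did most of all genes, of which 11.2% were higher and 6.78% lower. Of 11 complex IV genes, 0 passed 1.5-fold in either direction, with a median log2 ratio of 0.22, but 0.62 with members thinned to 1000 UMIs. Of 13 genes of complexes II and III, 1 was higher and 1 lower, with a median of 0.14. Cox5a, a nuclear-encoded subunit, had 215 CPM in KO and 154 CPM in WT (0.48 [0.10, 0.88]). Of 31 complex I genes, 3 were higher and 0 lower, with a median of 0.18. The 11 mitochondrial DNA transcripts compared had a median of 0.11, with 0 past 1.5-fold.

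Most granule and antimicrobial genes were within 1.5-fold, as were most of all genes. Of 12 specific granule genes, 2 were at least 1.5-fold higher in KO (Fcnb and Olfm4) and 1 lower (Mmp8). Of all genes, 11.2% were higher and 6.78% lower. The median of the specific granule list was 0.15. Lcn2 had 15016 CPM in KO and 13319.8 CPM in WT, Chil3 had a log2 ratio of -0.01 [-0.06, 0.05], and Cd177, a surface protein of specific granules, had 2173 CPM in KO and 2176 CPM in WT. Fcnb had 305 CPM in KO and 167 CPM in WT (0.87 [0.51, 1.25]), and its ratio was -0.29 with members thinned to 1000 UMIs. Olfm4, which marks a subset of neutrophils, had 436 CPM in KO and 104 CPM in WT, yet it was present in 18 of 287 KO and 2 of 39 WT members. In WT, 40 of its 41 UMIs were in 1 cell, and in KO all 18 cells with it held at least 10. Of 14 alarmin and antimicrobial genes and 7 NADPH oxidase genes, 0 passed 1.5-fold, beside the same shares of all genes.

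Genes of mature neutrophils and their receptors were lower in KO members, though not among members without UMIs of other lineages, as given below. Of 17 mature neutrophil genes, 8 were at least 1.5-fold lower and 1 higher, beside 6.78% and 11.2% of all genes, with a median of -0.58. Retnlg had 2541 CPM in KO and 5842 CPM in WT (-1.20 [-1.27, -1.13]). Csf3r, the receptor of the growth factor G-CSF, had 188 CPM in KO and 371 CPM in WT (-0.98 [-1.24, -0.72]), but 223 CPM in KO and 164 CPM in WT among members without UMIs of other lineages. Cxcr2, a chemokine receptor that draws neutrophils out of the marrow, had 369 CPM in KO and 611 CPM in WT (-0.73 [-0.93, -0.52]). In Ltf-low cells the median of the list was 0.10.

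Of 13 migration receptor genes, 5 were lower and 0 higher, beside 6.78% and 11.2% of all genes, and the median was -0.34, against 0.029 in members without UMIs of other lineages. Fpr1, a formyl peptide receptor, had 76.3 CPM in KO and 139 CPM in WT (-0.86 [-1.29, -0.42]), and C5ar1, a complement receptor, had 205 CPM in KO and 338 CPM in WT (-0.72 [-0.99, -0.45]), but 0.59 with members thinned to 1000 UMIs. Cxcr4, the receptor that holds neutrophils in the marrow, had 247 CPM in KO and 300.4 CPM in WT (-0.28 [-0.56, 0.01]), an interval across 0. Ltb4r1, the leukotriene B4 receptor, had 379.9 CPM in KO and 273 CPM in WT (0.48 [0.19, 0.77]). Mmp8 had a log2 ratio of -0.89 [-0.98, -0.80]. In members without UMIs of other lineages it had 1938 CPM in KO and 2511 CPM in WT.

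Immediate early and cytokine genes were lower in KO members as well, though mostly not among members without UMIs of other lineages. Of 15 immediate early genes, 8 were lower and 0 higher, beside 6.78% and 11.2% of all genes, and the median was -0.62, against -0.041 in members without UMIs of other lineages. Dusp1, a phosphatase that shuts off MAP kinases, had 54.9 CPM in KO and 187 CPM in WT (-1.77 [-2.16, -1.36]), and Junb, a subunit of AP-1, had 74.3 CPM in KO and 199 CPM in WT (-1.43 [-1.79, -1.04]). Of 7 cytokine and chemokine genes, 5 were lower and 0 higher, beside 6.78% and 11.2% of all genes, among them Il1b (-2.15 [-2.64, -1.65]). In members without UMIs of other lineages, the ratios were 1.04 for Il1b, 0.89 for Ccl6, 0.084 for Il1rn and 0.56 for Osm. No other gene of this list is among the sign changes given below. Fgl2, a fibrinogen-like immune regulator, had the lowest ratio of the genes named by interval, with 25.6 CPM in KO and 124 CPM in WT (-2.27 [-2.79, -1.74]). Srgn, the proteoglycan that packs granule contents, had 68.3 CPM in KO and 197 CPM in WT (-1.53 [-1.90, -1.14]). Of 13 granulocyte transcription factor genes, 4 were lower and 0 higher, beside the same shares of all genes. Cebpe (0.20 [-0.02, 0.43]) and Spi1, which encodes PU.1 (-0.03 [-0.27, 0.23]), had intervals across 0.

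Many of the UMIs of Il1b, Dusp1 and Fgl2 lay in few cells. Il1b was found in 34 of 287 KO and 10 of 39 WT members, and 4 WT cells held 84.9% of its 53 WT UMIs. Likewise 4 WT cells held 81.1% of the Dusp1 UMIs and 79.6% of the Fgl2 UMIs. In KO, 4 of 287 cells held 60.4% of the Il1b, 26.9% of the Dusp1 and 46.7% of the Fgl2 UMIs. UMIs of marker genes of B, T, NK, monocyte and macrophage, dendritic and erythroid cells were then counted in each member, a split chosen after seeing the data. At least 1 UMI of these 6 lists was in 159 KO members (55.4%) and 24 WT members (61.5%). A member held at most 63 such UMIs in KO and 4 in WT.

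In members without such UMIs, 128 in KO and 15 in WT, the mature neutrophil genes summed to 7911 CPM in KO and 8103 CPM in WT, and the immediate early genes to 2227 CPM in KO and 2258 CPM in WT. In members with such UMIs, 159 in KO and 24 in WT, the mature genes summed to 5869.6 CPM in KO and 14146 CPM in WT, and the immediate early genes to 1905 CPM in KO and 3609 CPM in WT. The lower KO levels were thus found in cells with such UMIs, and without these cells the median log2 ratio was 0.046 for the mature, 0.029 for the migration receptor and -0.041 for the immediate early list. Monocyte and macrophage markers summed to 74.0 CPM in KO and 50.5 CPM in WT members, with C1qa at 0 by the rule, and were found in 75 KO and 14 WT members, whose Retnlg levels were 1588 CPM in KO and 10231 CPM in WT. The log2 ratios of single genes without these cells were 1.04 for Il1b, 2.29 for Fgl2, 0.47 for Dusp1, 0.084 for Junb and 0.58 for Srgn, and that of Fcnb was -0.51. The part of these cells in the result was not tested. Without them the share of members was still higher in KO, by a ratio of 9.24.

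**Figure D4:**
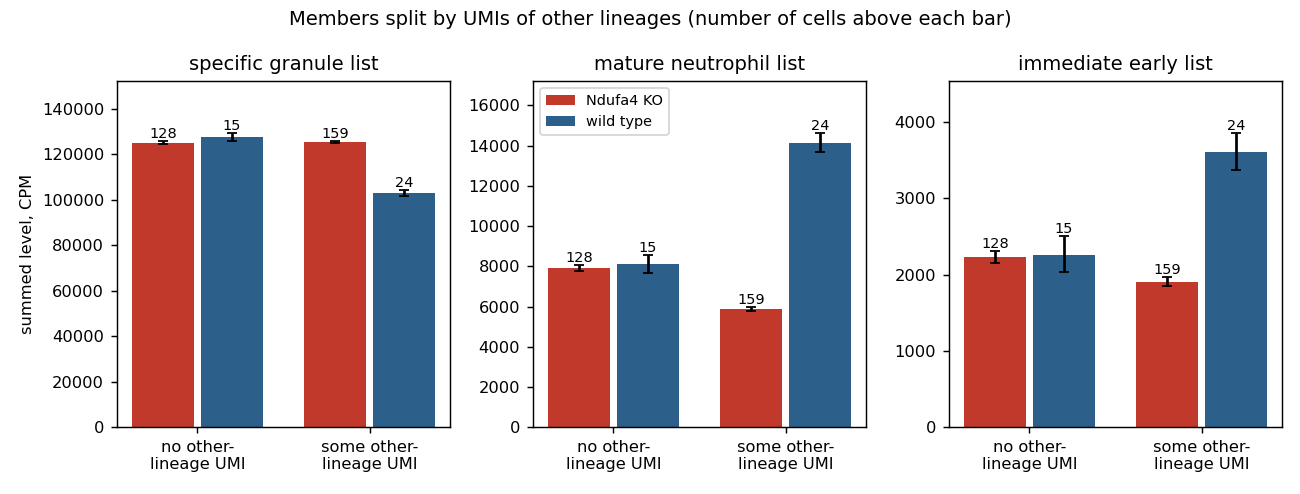
Summed levels in CPM of the specific granule, mature neutrophil and immediate early lists in members without and with a UMI of another lineage's markers, with KO bars left of WT bars, 95% Poisson intervals and the number of cells above each bar. KO and WT bars of the mature and immediate early lists are close in cells without such UMIs, and the WT bars are higher in cells with them.

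Division genes were higher in KO members. Of 22 G2 and M phase genes, 16 were at least 1.5-fold higher and 0 lower, beside 11.2% and 6.78% of all genes, with a median of 0.72. Kif11, a motor that separates spindle poles, had 99.9 CPM in KO and 32.8 CPM in WT (1.61 [0.81, 2.53]), and Mki67, a standard proliferation marker, had 340.3 CPM in KO and 204 CPM in WT (0.73 [0.41, 1.08]). Pcna, the sliding clamp of DNA replication, had 88.5 CPM in KO and 15.1 CPM in WT (2.55 [1.41, 4.00]), from 83 of 287 KO and 4 of 39 WT members. Tuba1b, an alpha tubulin, had 175 CPM in KO and 78.3 CPM in WT (1.16 [0.64, 1.73]). The histone gene Hist1h2ap went the other way, with 107 CPM in KO and 290.3 CPM in WT (-1.44 [-1.74, -1.12]), but 1 WT cell held 61.7% of its WT UMIs and near-identical histone genes make it uncertain. With each member thinned to 1000 UMIs the median of the G2 and M phase list was 0.036 over 16 genes, and the ratio of Kif11 was -0.010. Genes left with 0 UMIs in a library by thinning are missing from that median. The whole list had a mean of 1.21 UMIs per thinned member in KO and 0.789 in WT, where 1 cell held 40% of the sum.

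Among genes of protein synthesis and export, those past 1.5-fold were higher in KO. Of 19 protein export and folding genes, 5 were higher and 0 lower in KO, beside 11.2% and 6.78% of all genes, the median being 0.36. Hspa5, the main chaperone of the endoplasmic reticulum, had 272 CPM in KO and 164 CPM in WT (0.73 [0.37, 1.11]), and Pdia6, a disulfide isomerase, had 53.8 CPM in KO and 20.2 CPM in WT (1.41 [0.40, 2.65]). Of 81 ribosomal protein genes, many with near-identical copies, 24 were higher and 0 lower, beside the same shares of all genes, with a median of 0.40.

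**Figure D5:**
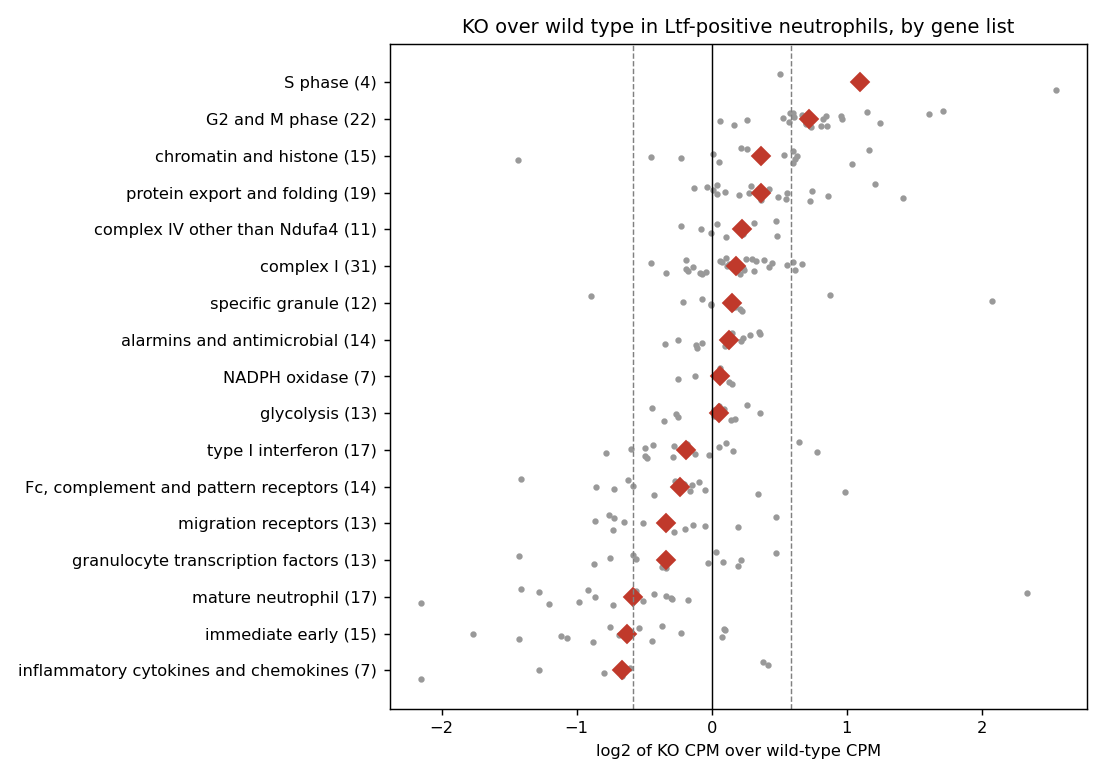
Log2 ratio of KO over WT CPM in members (horizontal) for the genes of 17 lists (vertical, with the number of genes compared), where grey points are genes, red diamonds are list medians and dashed lines are 1.5-fold. The diamonds of the S phase and G2 and M phase lists lie at 1.09 and 0.72, and those of the immediate early and cytokine lists at -0.62 and -0.67.

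The genes highest in KO were thinly counted in WT. Gas2l3, a cytoskeletal linker, had 117 UMIs in KO and 1 in WT, a log2 ratio of 3.72 [1.21, 9.04]. Ahnak, a large scaffold protein, had 256 UMIs in KO, of which 1 cell held 21.9%, and 3 in WT. The chemokine Ccl5 had 107 UMIs in KO, of which 1 cell held 50.5%, and 2 in WT. Ptbp1, a splicing regulator, Erp44, a chaperone, the inhibitory receptor Lair1, the calcium-binding S100a4, Ldhc, G2e3, 1700037H04Rik, Stfa2l1 and Pcna made up the rest of the 12.

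Ctse and Gm10076 were lower in KO in members and in the other spleen cells. Ctse, the protease cathepsin E, had 70.0 CPM in KO and 239.8 CPM in WT (-1.78 [-2.12, -1.42]) in members, 87.3 CPM in KO and 227 CPM in WT Ltf-low cells and 27.1 CPM in KO and 118 CPM in WT in the other spleen cells. Gm10076, a predicted gene, had 48.7 CPM in KO and 141 CPM in WT (-1.54 [-1.98, -1.08]) in members, 102 CPM in KO and 195 CPM in WT Ltf-low cells and 235 CPM in KO and 659.6 CPM in WT in the other spleen cells. Copies with like sequence make Gm10076 uncertain.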

How the data were processed

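Single-cell RNA libraries of sorted spleen and tumour cells were made with 10x Genomics 3′ chemistry v3.1. The deposited values are raw UMI counts per gene and barcode, written by Cell Ranger 6.0.0 per the file headers, whereas Cell Ranger 3.1 is named per the submitters' processing notes, with Seurat 3.1 and 3.1.4 and the builds mm10 and GRCm38. Counts of the members were summed per library and scaled to CPM. Ratios have exact conditional binomial intervals, shares Clopper-Pearson and differences Newcombe intervals, all at 95% and for counting error only. With 1 pooled library per genotype no test was made, and a gene was called past 1.5-fold by size. No doublet caller was run, and members with a UMI of another lineage were left out in an alternative. Cells were thinned with a fixed seed. Scripts were tested on simulated data.

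Named genes were the 12 highest and 12 lowest whose whole interval lay beyond 1.5-fold, the 20 most abundant, the 12 highest and lowest against Ltf-low cells, the 3 most abundant and the 2 farthest from 0 of each list, and all genes of the granule, transcription factor, migration and oxidase lists. Of the genes this selection gave, 1 is not reported here. Csf3r lies outside these and was chosen after its values were seen. The members and the lists were chosen with earlier results of these data known. Python 3.11.15, numpy 2.4.6, scipy 1.17.1, pandas 2.3.3 and matplotlib 3.10.9 were used.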

Additional observations from a re-analysis of the deposited data

Results flagged for a closer look

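More genes than are listed here, Il1b and Retnlg among them, had log2 ratios of KO over WT of opposite signs in Ltf-positive and Ltf-low neutrophils. The 8 genes below had opposite signs and were past 1.5-fold in both cell classes. The difference between these cell classes was not tested. Ltf-low cells could hold no UMI of Csf1r, which is on the monocyte and macrophage list with Fn1, while members could. With equal weight per cell the ratio of Fn1 in members was -1.47. The ratios were 1.62 in members and -1.26 in Ltf-low cells for Fn1, 0.99 in members and -0.66 in Ltf-low cells for Fcgr2b, 0.97 in members and -3.47 in Ltf-low cells for Ube2c, 2.23 in members and -1.78 in Ltf-low cells for S100a4. They were 2.48 in members and -1.33 in Ltf-low cells for Lair1, 0.73 in members and -0.73 in Ltf-low cells for Mki67, 2.07 in members and -0.82 in Ltf-low cells for Olfm4, 3.27 in members and -0.66 in Ltf-low cells for Ahnak.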

How the results depend on the processing

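No paired analysis was possible because each genotype had 1 pooled library. Over the alternatives tried, the share difference of 3.61 percentage points kept its sign. It was 1.64 without members that held another lineage's UMI, 13.5 among neutrophils only, and 20.5 among members plus Ltf-low cells, an alternative chosen after seeing the data. Counts of genes moved with the limits. Genes at least 1.5-fold higher and lower in KO, 446 and 270, numbered 702 and 943 after thinning, 1608 and 813 with a limit of 20 UMIs, and 1774 and 1655 with 1 UMI in each library. They numbered 120 and 164 with a mean of 50 CPM and 851 and 129 without the top cell of each gene, both also chosen after seeing the data. Without members holding another lineage's UMI, 728 genes were higher and 405 lower, and list medians were -0.063 for specific granule, 0.046 for mature neutrophil, 0.029 for migration receptor and -0.041 for immediate early genes. The complex IV median was 0.62 after thinning. The G2 and M phase median was -1.32 over 4 genes without cells that held a division UMI, which removes those genes by construction, and 1.78 without the 4 deepest members, an alternative chosen after seeing the data. Sign changes of single genes were counted only where the main ratio was past 1.5-fold with an interval off 0. The limits on UMIs or CPM per gene cannot move such a ratio. Of 181 single genes under 17 settings, 24 values changed sign in this way. Without members holding another lineage's UMI these were Ccl6 0.89, Cd300ld 0.24, Dusp1 0.47, Fcnb -0.51, Fgl2 2.29, Hist1h2ap 3.40, Il1b 1.04, Il1rap 0.33, Il1rn 0.084, Junb 0.084, Marcks 1.62, Osm 0.56, Selplg 0.62, Srgn 0.58. After thinning they were C5ar1 0.59, Fcnb -0.29, Il1rn 0.20, Kif11 -0.010, Ndrg1 0.083, Rrm2 -1.33, Sdhc 0.25. With equal weight per cell it was Fn1 -1.47, without cells holding a division UMI Fn1 -0.15, and without the 4 deepest members Hist1h2ap 3.88. The cause of these sign changes was not tested. WT depth, with a median of 26 UMIs per gene, limits all ratios.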

Other observations

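Of 47 type I interferon genes in the data, 17 had enough UMIs in members to be compared. In KO, 2 passed 1.5-fold upward and 2 downward, beside 11.2% and 6.78% of all genes, and their median log2 ratio was -0.19. Against Ltf-low cells 25 of 33 were lower in members in both libraries, beside 36.9% of all genes. Of 9 MHC class I genes, 0 passed 1.5-fold, with a median of -0.05. Of 13 glycolysis genes, 0 passed it, with a median of 0.06. Of 6 hypoxia genes, 1 was lower, with a median of 0.03. As 11.2% of all genes were higher and 6.78% lower, few genes past 1.5-fold do not set these short lists apart.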
